A study of Mus musculus with 114 samples.

Results

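Mest, Sfrp5, Npr3 and Bmp3 are genes whose mRNA in fat cells has been linked to the expansion of the fat pad on a high fat diet, and their levels were followed here in adipocytes of 38 mice. The 4 genes were taken by symbol from the 29132 genes measured, and all 4 passed the filter on low values that left 10343 genes to test. Perigonadal adipose tissue of male C57BL/6J mice was digested with collagenase, and poly(A) RNA of the isolated adipocytes was sequenced. From 6 weeks of age the mice were kept on a control chow (CD) or a high fat diet (HFD) for 8, 20 or 34 weeks, which gave 6 mice in every group apart from the 34 week CD group of 8 mice. No mouse carried a transgene or mutation in the labels, the CD mice had either of a pair of control diets, and the labels do not say which. Each of the 114 samples in the labels is 1 of 3 technical replicates of a mouse, and 1 merged value per mouse was analysed, so that every n below counts mice.

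White fat pads expand when adipocytes enlarge with stored triglyceride and when new adipocytes form from progenitors. Mest is an imprinted gene, expressed from the paternal allele, that encodes a protein of the alpha/beta hydrolase fold family, and its level in white fat is known to go with fat mass gain. Sfrp5 encodes a secreted frizzled-related protein that binds Wnt ligands outside the cell, Npr3 encodes the receptor that clears natriuretic peptides and so limits their lipolytic signal, and Bmp3 encodes an atypical member of the bone morphogenetic protein (BMP) family that opposes the signals of other BMPs.

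On GRCm38, RefSeq places Mest at chr6:30733506-30748466 on the plus strand, Sfrp5 at chr19:42197971-42202252 on the minus strand, Npr3 at chr15:11839896-11907837 on the minus strand and Bmp3 at chr5:98854415-98884053 on the plus strand. The RefSeq promoter table held windows for 3 of the 4 genes, namely Mest, Sfrp5 and Npr3. The 250 bases before a start site are shown for Mest (chr6:30737800-30738049, plus strand, within an intron of the longer Mest transcripts) and Sfrp5 (chr19:42202253-42202502, minus strand), the pair with the highest within-group Pearson r in the data below, with the GC box in capitals.
Mest: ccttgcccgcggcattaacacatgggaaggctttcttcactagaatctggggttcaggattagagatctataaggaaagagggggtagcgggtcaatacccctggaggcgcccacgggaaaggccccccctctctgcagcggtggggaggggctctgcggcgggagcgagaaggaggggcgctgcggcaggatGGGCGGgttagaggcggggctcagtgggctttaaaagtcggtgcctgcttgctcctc
Sfrp5: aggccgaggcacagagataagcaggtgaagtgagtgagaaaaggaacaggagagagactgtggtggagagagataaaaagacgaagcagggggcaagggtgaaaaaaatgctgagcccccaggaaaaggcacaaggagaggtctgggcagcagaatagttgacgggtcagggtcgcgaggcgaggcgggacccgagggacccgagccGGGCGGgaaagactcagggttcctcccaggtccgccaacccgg
Each of these windows held the GC box GGGCGG once, which began 57 bases before the start in Mest and 43 bases before it in Sfrp5. None of the other 6 motifs searched on both strands was in either window, namely the CCAAT box, the TATA box (TATAAA), the nuclear receptor site (AGGTCA), the E-box (CACGTG), the TCF/LEF core (CTTTGA) and its variant (CTTTGT). The Npr3 window (chr15:11907372-11907621, minus strand) held CCAAT once and none of the other motifs. This window lies inside the RefSeq span of Npr3 given above, and no GENCODE transcript begins at its start site, 11907371. Among all 32851 windows of this length, 32.7% held the GC box and 33.8% held CCAAT, so that both are common letters. The GC content was 62.4% for this Mest window and 59.6% for Sfrp5 against 38.8% for Npr3 and a median of 52.4% over all windows. Mest had other windows too. The window before the RefSeq start at 30733506 had a GC content of 60.8%, and its GC box began 13 bases before the start.

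Values are CPM, the reads of a gene scaled so that all genes of a mouse sum to 1e+06. The libraries held 9275711 to 15480388 reads on genes, a single read was worth 0.0646 to 0.108 CPM, and the lowest value of any member in any mouse, Sfrp5 in a 20 week CD mouse, rested on 58 reads. Differences were tested with limma on log2(CPM + 1) over the 10343 genes, with Benjamini-Hochberg adjustment over all of them and a threshold of 0.05, and a gene past it is said to have risen or fallen. Folds are on the same log2(CPM + 1) scale. The mice are separate animals, and whether some shared a litter or cage is not given in the sources used here. The adipocyte marker Adipoq had a group mean of at least 3482 CPM in all 6 groups. In the 20 week CD group mouse 3 had the lowest value of all 4 genes.

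To compare levels between genes, the mean CPM was divided by the length of the union of GENCODE exons. In 8 week CD mice this gave 80.3 ± 31.1 CPM per kb for Mest (SD, n = 6), 72.7 ± 22.7 for Npr3, 16.5 ± 6.59 for Sfrp5 and 1.95 ± 0.686 for Bmp3. In 8 week HFD mice the means per kb were 258 ± 79.4 for Mest, 214 ± 42.9 for Npr3, 212 ± 70.4 for Sfrp5 and 8.43 ± 1.94 for Bmp3 (SD, n = 6). Sfrp5 thus stood below Mest and Npr3 in every 8 week CD mouse but overlapped both on HFD, and Bmp3 was the lowest of the 4 genes per length in both groups.

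**Figure D1:**
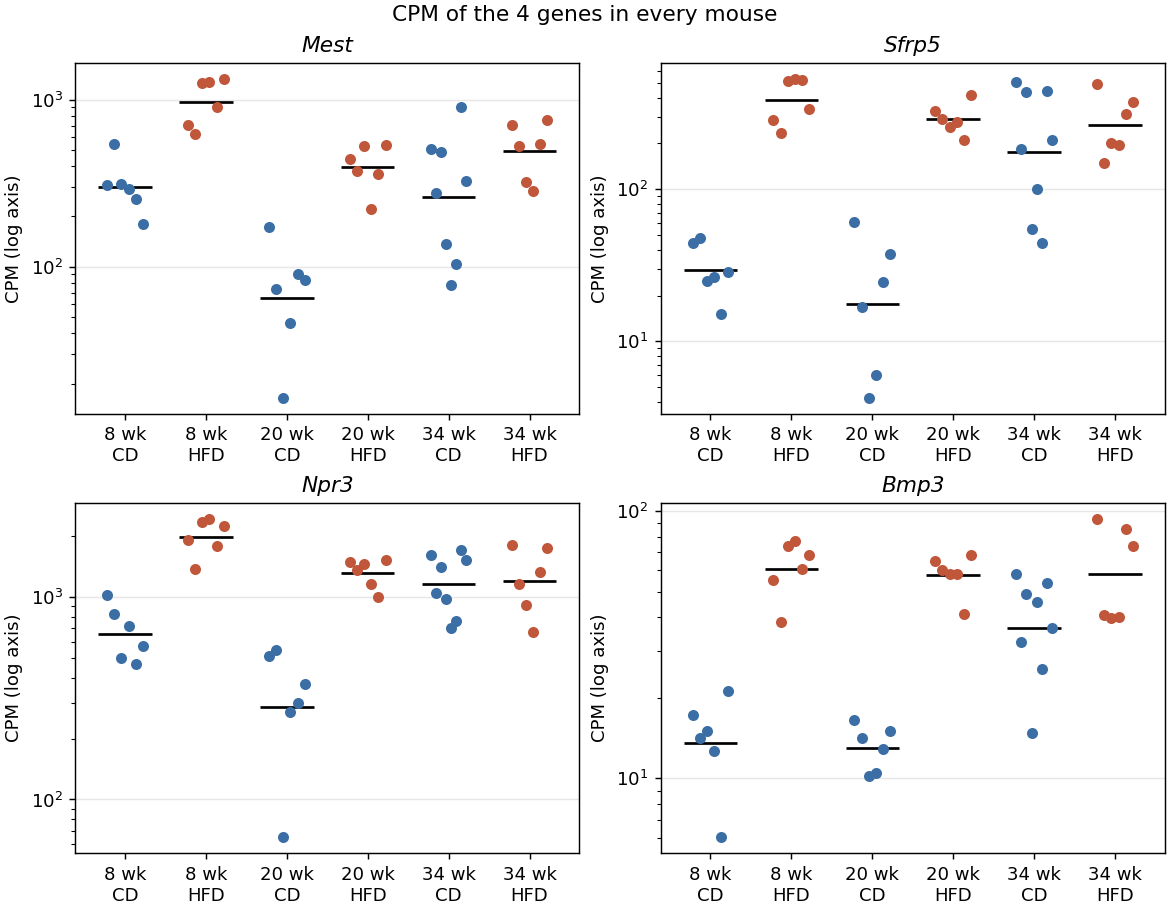
CPM of Mest, Sfrp5, Npr3 and Bmp3 (log axis) in each of the 38 mice by group, with CD in blue, HFD in red and a bar at the group mean of log2(CPM + 1) turned back to CPM. At 8 and 20 weeks the diets do not overlap for any of the 4 genes, while at 34 weeks they overlap for all 4.

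All 4 genes rose with HFD at 8 and at 20 weeks, and every HFD mouse was above every CD mouse of the same time. Over all genes tested, 29.8% rose at 8 weeks and 38.3% at 20 weeks, and 15.7% and 26.1% had all HFD mice above all CD mice. At 34 weeks the diets overlapped for all 4 genes and Bmp3 was the 1 member that passed the test, where 27.5% of all genes rose. Of all genes tested, 12.2% rose at all 3 times, as Bmp3 did. The share of higher among the genes that passed depended on the scaling and was 66.3%, 67.1% and 63.6% at the 3 times as deposited. It was 51.4%, 44.7% and 51.9% with TMM factors and 51.9%, 50.5% and 49.9% with median-of-ratios factors. The median log2 difference of all genes at 20 weeks was 0.14 as deposited and -0.07 with TMM.

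Mest ranged from 181 to 546 CPM in 8 week CD mice, with a median of 302 CPM, and from 621 to 1328 CPM in 8 week HFD mice, with a median of 1084 CPM. The lowest HFD mouse was above the highest CD mouse, and the difference was 1.70 on the log2 scale (SE 0.46, 3.24-fold, adjusted p = 0.00366). At 20 weeks Mest ranged from 16.5 to 173 CPM in 20 week CD mice, with a median of 78.6 CPM, and from 221 to 533 CPM in 20 week HFD mice, with a median of 409 CPM. Again no mouse of one diet fell within the range of the other, with a log2 difference of 2.58 (SE 0.46, adjusted p = 1.85e-05) and a fold of 5.96. At 34 weeks it ranged from 77.5 to 898 CPM in 34 week CD mice, with a median of 302 CPM, and from 285 to 750.4 CPM in 34 week HFD mice, with a median of 534 CPM. The CD range then enclosed the whole HFD range, and the log2 difference of 0.90 did not pass the test (95% CI 0.02 to 1.77, adjusted p = 0.0879). Without mouse 7 of the 34 week CD group, which had the highest Mest of that group, the difference was 1.15 and passed (adjusted p = 0.023, where the fits without single mice gave 0.023 to 0.191).

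Sfrp5, the secreted Wnt-binding protein, had the largest diet difference of the 4 genes at 8 and 20 weeks. It ranged from 15.1 to 48.1 CPM in 8 week CD mice, with a median of 27.6 CPM, against from 233 to 529.8 CPM in 8 week HFD mice, with a median of 427 CPM. The groups were far apart, with a log2 difference of 3.67 (SE 0.52, adjusted p = 3.81e-06) and a fold of 12.7, and it ranked number 6 of the 10343 genes by log2 difference. At 20 weeks Sfrp5 ranged from 4.27 to 60.9 CPM in 20 week CD mice, with a median of 20.7 CPM, against from 212 to 416 CPM in 20 week HFD mice, with a median of 282 CPM. The fold was 15.7, with a log2 difference of 3.97 (SE 0.52, adjusted p = 2.67e-07), and its rank was 43. At 34 weeks it ranged from 44.5 to 506 CPM in 34 week CD mice, with a median of 198 CPM, against from 148 to 489 CPM in 34 week HFD mice, with a median of 255 CPM. Here the CD mice spread over the whole HFD range and beyond it on both sides, and the log2 difference of 0.57 did not pass the test (95% CI -0.42 to 1.56, adjusted p = 0.348).

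Npr3, the natriuretic peptide clearance receptor, ranged from 466 to 1021 CPM in 8 week CD mice, with a median of 645 CPM, and from 1373 to 2440.2 CPM in 8 week HFD mice, with a median of 2069 CPM. The diets did not overlap, with a log2 difference of 1.59 (SE 0.33, adjusted p = 0.000322) and a fold of 3.00. At 20 weeks Npr3 ranged from 65.1 to 546 CPM in 20 week CD mice, with a median of 334 CPM, and from 1005 to 1517 CPM in 20 week HFD mice, with a median of 1407 CPM. The gap between the diets was wider there, with a log2 difference of 2.20 (SE 0.33, adjusted p = 1.61e-06) and a fold of 4.58. At 34 weeks it ranged from 703 to 1715 CPM in 34 week CD mice, with a median of 1225 CPM, and from 671 to 1814 CPM in 34 week HFD mice, with a median of 1242 CPM. The medians of the diets were close, 2 HFD mice were above and 1 was below every CD mouse, and the log2 difference was 0.05 (95% CI -0.57 to 0.68, adjusted p = 0.902), whose sign turned under TMM, median-of-ratios scaling, edgeR and the macrophage covariate (-0.09 to -0.03).

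Bmp3, the BMP family ligand, ranged from 6.02 to 21.3 CPM in 8 week CD mice, with a median of 14.6 CPM, and from 38.3 to 77.5 CPM in 8 week HFD mice, with a median of 64.6 CPM. No values of the diets overlapped, with a log2 difference of 2.09 (SE 0.27, adjusted p = 1.02e-06) and a fold of 4.25. At 20 weeks Bmp3 ranged from 10.2 to 16.5 CPM in 20 week CD mice, with a median of 13.5 CPM, and from 41.2 to 68.7 CPM in 20 week HFD mice, with a median of 59.1 CPM. The separation was the same size, with a log2 difference of 2.07 (SE 0.27, adjusted p = 2.44e-07) and a fold of 4.20. At 34 weeks it ranged from 14.7 to 58.4 CPM in 34 week CD mice, with a median of 41.1 CPM, and from 39.7 to 93.7 CPM in 34 week HFD mice, with a median of 57.5 CPM. Of the HFD mice 3 of 6 were above every CD mouse and the others lay among them, with a log2 difference of 0.66 (SE 0.25, adjusted p = 0.0343) and a fold of 1.58. The call at 34 weeks was lost in 4 of 8 alternative settings (adjusted p 0.0218 to 0.377 over the 8) and on leaving out mouse 2, 4 or 6 of the CD group or mouse 1, 5 or 6 of the HFD group (log2 difference 0.48 to 0.63, adjusted p 0.0507 to 0.0974).

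**Figure D2:**
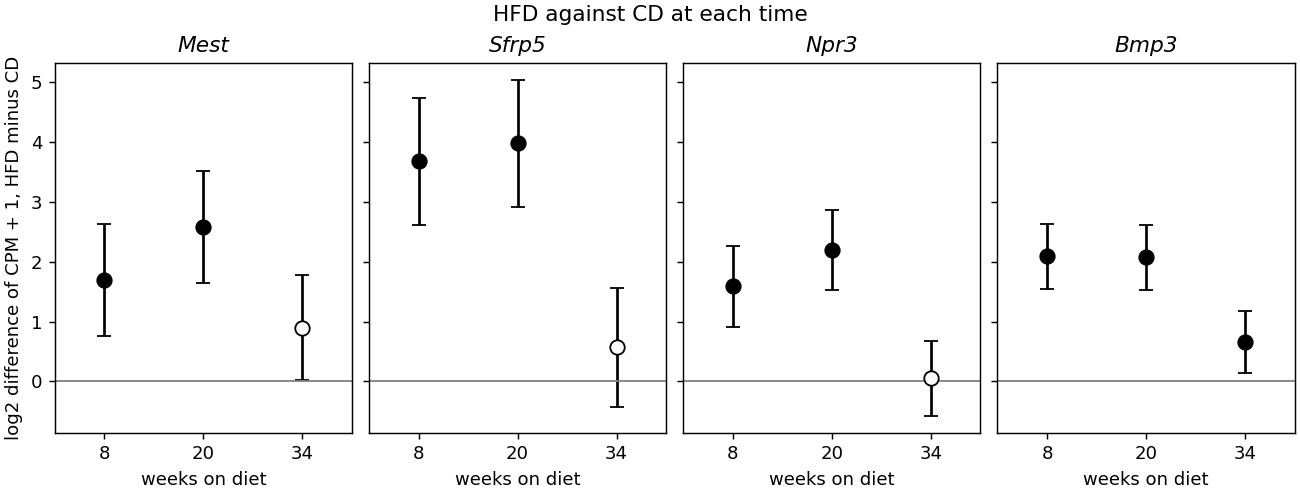
Log2 difference of CPM + 1 between HFD and CD mice (y axis) at 8, 20 and 34 weeks of diet (x axis) for each gene, with 95% confidence intervals of the limma fit and filled points where the adjusted p is under 0.05. All points at 8 and 20 weeks are filled, from 1.59 to 3.97, while at 34 weeks the filled point is that of Bmp3 at 0.66.

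The difference between times in the diet difference was tested as an interaction. Between 20 and 34 weeks the diet difference of Sfrp5 fell by 3.40 on the log2 scale (SE 0.71, adjusted p = 0.00338), that of Npr3 by 2.14 (SE 0.45, adjusted p = 0.00348) and that of Bmp3 by 1.41 (SE 0.37, adjusted p = 0.0133). For Mest the change was -1.68 and did not pass the test (95% CI -2.96 to -0.40, adjusted p = 0.0794). Over all genes, 6.31% had a lower diet difference at 34 than at 20 weeks. Leaving out mouse 1 of the 20 week CD group or mouse 5 or 6 of the 34 week CD group brought Mest past the threshold (-1.96, -1.93 and -1.87, adjusted p 0.0288 to 0.0393).

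Against 8 weeks, the diet difference at 34 weeks changed by -3.10 for Sfrp5 on the log2 scale (adjusted p = 0.00163), with log2 changes of -1.53 for Npr3 (adjusted p = 0.0108) and -1.43 for Bmp3 (adjusted p = 0.0043), where 15.9% of all genes had a lower one. Mest did not pass at -0.80 (95% CI -2.08 to 0.48, adjusted p = 0.356). None of the 4 genes passed the test of a difference between 8 and 20 weeks, with adjusted p of 0.371 for Mest, 0.809 for Sfrp5, 0.387 for Npr3 and 0.982 for Bmp3 in limma, where 4.49% of all genes passed.

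Each diet was then followed over time. In CD, Mest fell between 8 and 20 weeks by 2.18 on the log2 scale (SE 0.46, adjusted p = 0.00441), and all 6 mice at 20 weeks were below all 6 at 8 weeks. This was the largest fall among the 10343 genes in that comparison, in which 1.88% of genes fell and 1.81% had all mice at 20 weeks below all at 8 weeks. Npr3 also fell, by 1.20 (SE 0.33, adjusted p = 0.0316), and 4 of 6 mice were below all mice at 8 weeks. The Npr3 call was lost without mouse 1, 2 or 4 of the 8 week CD group or mouse 3, 4 or 5 of the 20 week CD group (adjusted p 0.0509 to 0.110), without a filter, in edgeR and with the compared groups alone (0.0537, 0.0504 and 0.125, where the 8 alternatives spanned 0.0158 to 0.125), and its log2 difference was -0.77 without mouse 3 of the 20 week group. Sfrp5 and Bmp3 differed by -0.71 (95% CI -1.77 to 0.35, adjusted p = 0.52) and -0.05 (95% CI -0.60 to 0.49, adjusted p = 0.944) and did not pass.

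Between 20 and 34 weeks all 4 genes rose in CD mice, as did 41.1% of all genes. Sfrp5 rose 9.59-fold (3.26 on the log2 scale, SE 0.49, adjusted p = 1.14e-06), which ranked 9 of all genes. Npr3 rose 4.04-fold (log2 2.01, adjusted p = 1.68e-06), with all 8 mice above all 6 at 20 weeks, as in 12% of all genes. Mest rose 3.98-fold (log2 1.99, adjusted p = 0.000186) and Bmp3 2.68-fold (log2 1.42, adjusted p = 1.50e-05). A fall from 8 to 20 weeks followed by a rise to 34 weeks, both past the threshold, was found in 1.12% of all genes, with Mest and Npr3 among them.

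At 34 weeks CD mice were above 8 week CD mice for Sfrp5 (2.55 on the log2 scale, adjusted p = 3.73e-05), Bmp3 (1.37, adjusted p = 2.48e-05) and Npr3 (0.82, adjusted p = 0.0207), as were 40.1% of all genes. The Npr3 call was lost with the macrophage covariate (0.64, adjusted p = 0.194), with the replicate block (0.66, adjusted p = 0.0655) and without mouse 5 of the 8 week group (0.72, adjusted p = 0.0552), where the 8 alternatives spanned 0.00952 to 0.194. Mest differed by -0.19 (95% CI -1.07 to 0.68, adjusted p = 0.706).

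In HFD mice Mest fell between 8 and 20 weeks by 1.31 on the log2 scale (SE 0.46, adjusted p = 0.0263), with all 6 mice at 20 weeks below all 6 at 8 weeks, where 15.3% of all genes fell and 9.63% had all mice below. That call was lost with the macrophage covariate (-1.64, adjusted p = 0.111, where the 8 alternatives spanned 0.000891 to 0.111) and without mouse 4 or 6 of the 8 week group or mouse 4 of the 20 week group (adjusted p 0.0512 to 0.0606). Sfrp5, Npr3 and Bmp3 did not pass the limma test between any times within HFD as deposited, with adjusted p from 0.0669 to 0.982, and Mest did not pass in the other HFD comparisons. Of all genes, 30.2% passed between 20 and 34 weeks and 52.5% between 8 and 34 weeks. At 34 against 8 weeks Mest differed by -0.99 (95% CI -1.93 to -0.06, adjusted p = 0.0695) and Npr3 by -0.72 (95% CI -1.39 to -0.05, adjusted p = 0.0669). Both passed with TMM, with median-of-ratios factors, in edgeR and with the compared groups alone. Over the 8 alternatives the adjusted p was 0.0105 to 0.109 for Mest and 0.0266 to 0.123 for Npr3. Npr3 also passed without mouse 2 of the 8 week HFD group or mouse 1 or 6 of the 34 week HFD group (adjusted p 0.0409 to 0.0487). With the compared groups alone Npr3 also fell between 8 and 20 weeks (-0.59, adjusted p = 0.00723, where the 8 alternatives spanned 0.00723 to 0.346).

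Ordered by the mean of log2(CPM + 1), 8 week HFD mice were the highest and 20 week CD mice the lowest group for all 4 genes, although for Sfrp5 and Bmp3 the step from 8 to 20 week CD did not pass the test. The step from 8 week HFD to the next group did not pass for any of the 4 genes, and for Bmp3 it was 0.06 (adjusted p = 0.865). For Sfrp5 and Npr3 the order was 8, 20 and 34 week HFD, then 34, 8 and 20 week CD. For Sfrp5 the step from 34 to 8 week CD mice was the 1 step between neighbours that passed the test (2.55, adjusted p = 3.73e-05). The 34 week CD mice were spread, and mice 4 (54.7 CPM) and 6 (44.5 CPM) lay within the range of 20 week CD mice and below every HFD mouse of any time. For Npr3 the steps from 34 to 8 and from 8 to 20 week CD passed and the steps among HFD groups and down to 34 week CD did not. For Bmp3 the 34 week CD mice lay between, below 20 week HFD mice (-0.65, adjusted p = 0.0278, as were 30.8% of all genes) and above 8 week CD mice. For Mest the order was 8, 34 and 20 week HFD, then 8, 34 and 20 week CD, and the last step alone passed.

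The 34 week CD group had the widest spread between mice for Mest, with an 11.6-fold range, and ranges of 11.4-fold for Sfrp5, 3.97-fold for Bmp3 and 2.44-fold for Npr3. For Mest, Sfrp5 and Npr3, mice 4, 5 and 6 were the lowest of this group and mice 1, 3, 7 and 8 the highest. Mouse 5, which had the lowest Mest (77.5 CPM) and Npr3 (703 CPM) of the group, had a Bmp3 value of 45.9 CPM above the group median of 41.1 CPM. In the 20 week CD group the ranges were 10.5-fold for Mest, 14.3-fold for Sfrp5 and 8.38-fold for Npr3, against 1.61-fold for Bmp3.

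The 4 genes varied together among mice of the same diet and time, least closely for Mest with Bmp3. After removing group means, Mest correlated with Sfrp5 (Pearson r = 0.842, Spearman rho = 0.823) and with Npr3 (r = 0.816, rho = 0.838) over the 38 mice. Sfrp5 correlated with Npr3 (r = 0.744, rho = 0.817) and with Bmp3 (r = 0.743, rho = 0.760). The permutation p was 1e-05 for r and for rho in these 4 pairs, the smallest that 100000 two-sided permutations within groups can give, and 1.5e-05 after Benjamini-Hochberg adjustment over the 6 pairs. Mest with Bmp3 (r = 0.520, permutation p = 0.00198, adjusted p = 0.00198, rho = 0.615, permutation p = 0.00029) and Npr3 with Bmp3 (r = 0.547, permutation p = 3e-05, adjusted p = 3.6e-05, rho = 0.674, permutation p = 6e-05) were less close in value. Without the 2 mice farthest from the median of the first gene, r was 0.598 to 0.835 in the 6 pairs. Each member was also ranked among the other 10342 genes by r after removing group means over all 38 mice. Sfrp5 was number 17 and Npr3 number 43 for Mest, Npr3 was number 128 and Bmp3 number 131 for Sfrp5. Bmp3 was number 904 for Mest and number 714 for Npr3, so many genes outside the 4 varied more closely with these members.

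Within single groups r was positive in all 6 groups for 5 of the pairs, and for Mest with Bmp3 in 5 of 6, the exception being 8 week CD mice (r = -0.078). Sequencing depth, as the log2 of reads, correlated with the 4 genes at r = 0.088 to 0.14 after removing group means (permutation p 0.355 to 0.711). In 8 week HFD mice r with depth was 0.601 for Mest, 0.489 for Sfrp5, 0.864 for Npr3 and 0.768 for Bmp3. The lowest r in a single group was -0.192, for Sfrp5 in 34 week HFD mice. Depth was not tested within single groups. At 8 weeks the libraries of the diets did not overlap in depth, with 10562845 to 12611013 reads in CD and 13201234 to 15480388 in HFD mice. Removing group means takes this difference out of r, so depth and diet cannot be told apart at 8 weeks. At 20 and 34 weeks the depths of the diets overlapped.

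**Figure D3:**
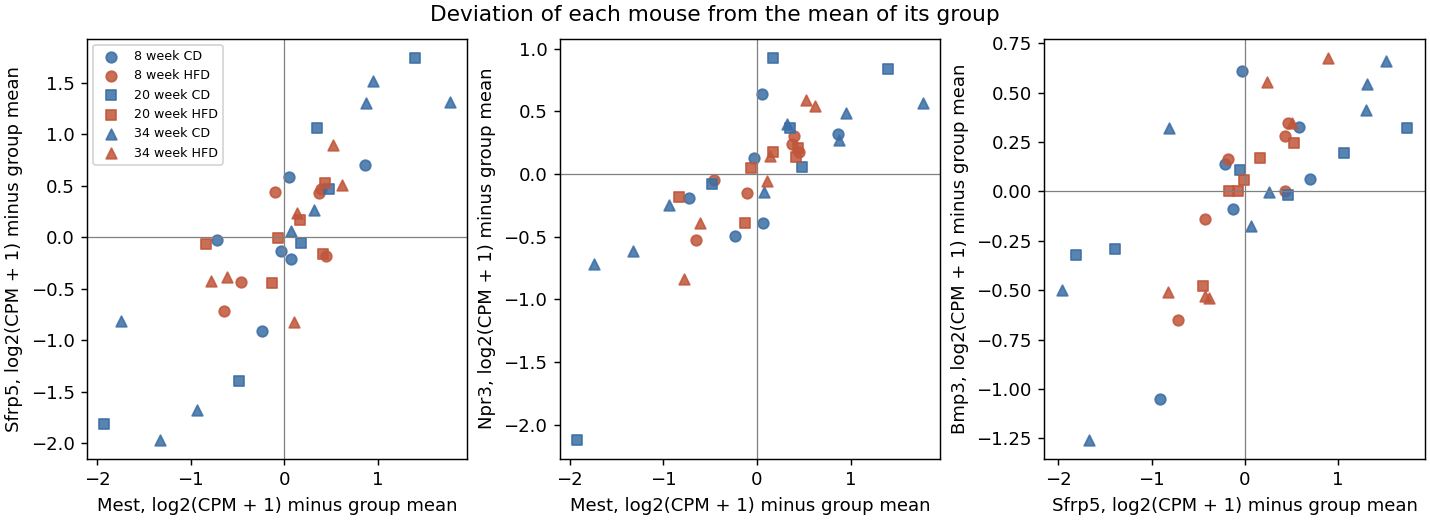
Deviation of each mouse from its group mean in log2(CPM + 1) for 3 of the pairs, Sfrp5 against Mest, Npr3 against Mest and Bmp3 against Sfrp5, with CD in blue, HFD in red and circles, squares and triangles for 8, 20 and 34 weeks. Points run from lower left to upper right in all 3 panels (r = 0.842, 0.816 and 0.743), and for Mest and Sfrp5 the widest deviations are CD mice at 20 and 34 weeks.

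Genes most like each member were sought by Pearson r of log2(CPM + 1) over all 38 mice, as a description that also takes in the differences between groups. For Mest these were Trim67, Igfbp5, Lep, Col18a1 and its genomic neighbour Cep41 (r = 0.928 to 0.913). For Npr3 they were Lep, the adipocyte hormone leptin, with Adamts2, Rtn4rl1, Ikbip and Igfbp5 (r = 0.960 to 0.943). Sfrp5 was closest to Serpinf1, which encodes pigment epithelium-derived factor, then Syp, Srpx2, Map1a and Lynx1 (r = 0.967 to 0.949). Leaving Sfrp5 aside, Bmp3 was closest to Lynx1, Lctl, Serpinf1, Syp and Pam (r = 0.953 to 0.929). Lep and Igfbp5 were on the lists of both Mest and Npr3, and Serpinf1, Syp and Lynx1 on those of both Sfrp5 and Bmp3. Members were passed over in these lists. Among the other 10342 genes, Sfrp5 was number 4 for Bmp3 (r = 0.937), ahead of Syp and Pam, and Npr3 was number 12 for Mest (r = 0.898). Other pairs of members were less close, with Mest number 304 for Sfrp5 (r = 0.822) and Npr3 number 306 for Bmp3 (r = 0.809). Bmp3 was number 395 for Mest and Mest number 1202 for Bmp3 (r = 0.706).

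All 15 of these genes rose with HFD at 8 and 20 weeks, and Trim67 (0.52 on the log2 scale), Cep41 (0.39) and Lctl (0.80) rose at 34 weeks. Among all genes tested, 29.8%, 38.3% and 27.5% rose at 8, 20 and 34 weeks. Since the 15 genes were chosen for their likeness to the members, their counts are a description.

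**Figure D4:**
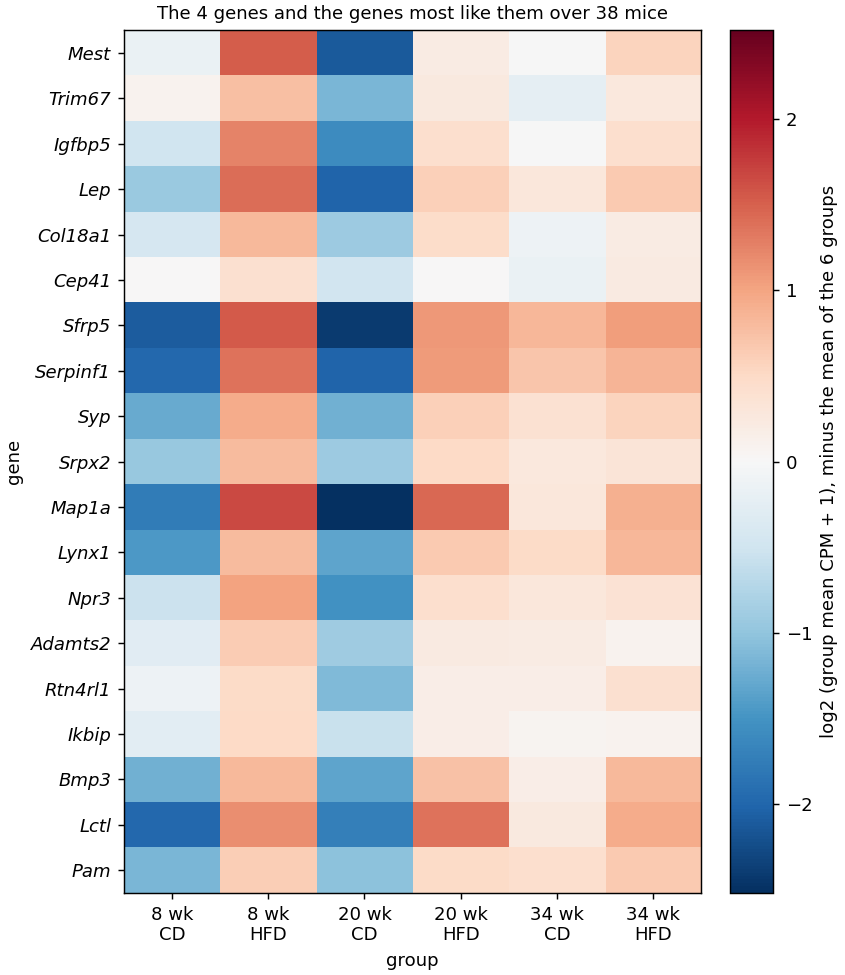
Heat map of the 4 genes and the 5 genes most like each over 38 mice (rows), with the log2 of the group mean CPM + 1 less the mean over the 6 groups in colour (columns are groups). In every row the lowest group is 8 or 20 week CD and the highest is an HFD group.

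The natriuretic peptide genes around Npr3 moved in both directions. Of 15 genes listed, 7 were tested, and 3 rose and 1 fell with HFD at 8 weeks, 4 rose and 2 fell at 20 weeks, and 1 rose and 1 fell at 34 weeks. The median log2 difference was 0.33, 0.69 and 0.34 at the 3 times, against 0.11, 0.14 and 0.07 over all genes. Of all genes tested, 29.8%, 38.3% and 27.5% rose and 15.1%, 18.7% and 15.7% fell. Pde2a, a cyclic nucleotide phosphodiesterase that is stimulated by cGMP, rose by 2.30 at 8 weeks and 1.94 at 20 weeks on the log2 scale. Pde5a, which degrades cGMP, had log2 differences of -0.76 and -1.11 at the same times and fell at both. Npr1, the guanylyl cyclase receptor for atrial natriuretic peptide, rose at 20 weeks (0.78), with group means of 10.2 to 27.5 CPM. Npr2, the receptor for C-type natriuretic peptide, fell at 20 (-0.71) and 34 weeks (-0.76). Mme, the peptidase neprilysin, rose at all 3 times (0.81, 0.73 and 0.65). With TMM the rise of Ide at 8 weeks was lost (0.22, adjusted p = 0.230), and Ide fell at 34 weeks (-0.38, adjusted p = 0.0306). Both changes were also seen with median-of-ratios factors. The hormone genes Nppa, Nppb and Nppc had group means of at most 0.0426 CPM and were not tested.

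Among 29 genes of the BMP family and its antagonists, 19 were tested. At 8 weeks 1 rose and 4 fell with HFD, and at 20 weeks 2 rose and 5 fell. At 34 weeks 3 rose and 3 fell, and the median log2 difference was -0.19, -0.21 and -0.075 at the 3 times. Over all genes 29.8%, 38.3% and 27.5% rose and 15.1%, 18.7% and 15.7% fell. With TMM and with median-of-ratios factors, Chrd and Bmper also fell at 8 weeks. At 20 weeks Bmpr1a, Smad1, Chrdl1 and Twsg1 then fell too, and the rise of Bmper was lost. Smad5 fell at 34 weeks with median-of-ratios factors. Bmp4 (-0.87) and the antagonist Chrdl1 (-0.80) fell at 8 weeks. The inhibitory Smad6 fell at 20 weeks (-0.92). Of the Id genes, which BMP signals are known to induce, Id1 fell at 20 weeks (-0.80), Id2 rose at 20 (1.42) and 34 weeks (1.31) and Id3 fell at 20 (-0.62) and 34 weeks (-0.76). The antagonist Nog rose at 8 weeks (0.42, adjusted p = 0.0494, lost with TMM at 0.132) and fell at 34 weeks (-1.11).

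Of 13 secreted Wnt antagonists beside Sfrp5, Sfrp1 and Apcdd1 alone had enough reads to be tested. Sfrp1 rose at 20 weeks (1.61) with group means of 1.16 and 5.27 CPM, and Apcdd1, which is held at the cell membrane, fell at 34 weeks (-0.89). Apcdd1 also fell at 20 weeks with TMM (-0.60, adjusted p = 0.0183) and with median-of-ratios factors (-0.54, adjusted p = 0.0274). The frizzled-related Sfrp2 and Sfrp4 had group means of at most 2.95 CPM.

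Of 15 genes of the imprinted gene network that Mest belongs to, 11 were tested, and 1 rose and 1 fell at 8 weeks, 4 rose and 3 fell at 20 weeks, and 2 rose and 4 fell at 34 weeks. Grb10, an adaptor that dampens insulin receptor signalling, fell at all 3 times (-0.82, -1.50 and -1.21). Plagl1, a zinc finger factor that regulates other imprinted genes, fell at 20 (-1.43) and 34 weeks (-1.33). Igf2r, the receptor that clears IGF2, rose at 20 (1.64) and 34 weeks (1.29), and Ndn, which encodes necdin, rose at 8 (1.02) and 20 weeks (0.54, lost with TMM at adjusted p = 0.186) and fell at 34 weeks (-0.97). The median log2 difference of the list was 0.13, -0.08 and -0.05. Over all genes it was 0.11, 0.14 and 0.07, and 29.8%, 38.3% and 27.5% rose and 15.1%, 18.7% and 15.7% fell. With TMM, Peg10 also fell at 20 weeks (-0.92, adjusted p = 0.0497).

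Of 6 genes next to Mest on chromosome 6, 3 were tested. Among all genes tested, 29.8%, 38.3% and 27.5% rose at 8, 20 and 34 weeks, 12.2% rose at all 3 times and 18.7% fell at 20 weeks. Cep41, a centrosomal protein gene, rose at all 3 times by 0.40, 0.52 and 0.39 on the log2 scale (at 8 weeks lost with TMM, adjusted p = 0.0545), the transcription factor gene Klf14 rose at 8 weeks by 1.12, and Copg2 fell by 0.26 at 20 weeks (adjusted p = 0.00343). Copg2 lies on the opposite strand and shares 912 exonic bases with Mest, 23.1% of the Mest exons, and since the strand setting of the counting is not given in the sources used here, it cannot be told apart here which gene the reads of that stretch came from.

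Of 7 other genes linked to fat cell size, 5 were analysed here. Among all genes tested, 29.8%, 38.3% and 27.5% rose at 8, 20 and 34 weeks and 15.1%, 18.7% and 15.7% fell. Lep (2.18 and 2.90), Nkd1, an inhibitor of Wnt signalling inside the cell (2.05 and 2.32), and Fgf1 (1.86 and 1.72) rose at 8 and 20 weeks, and none of the 5 genes rose at 34 weeks. Cav1, a coat protein of caveolae, fell at 34 weeks (-0.47), and Cav2 rose at 8 weeks (0.44, lost with TMM at adjusted p = 0.119). Cav1 also fell at 20 weeks with TMM (-0.51, adjusted p = 0.0143) and with median-of-ratios factors (-0.45, adjusted p = 0.0223).

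**Figure D5:**
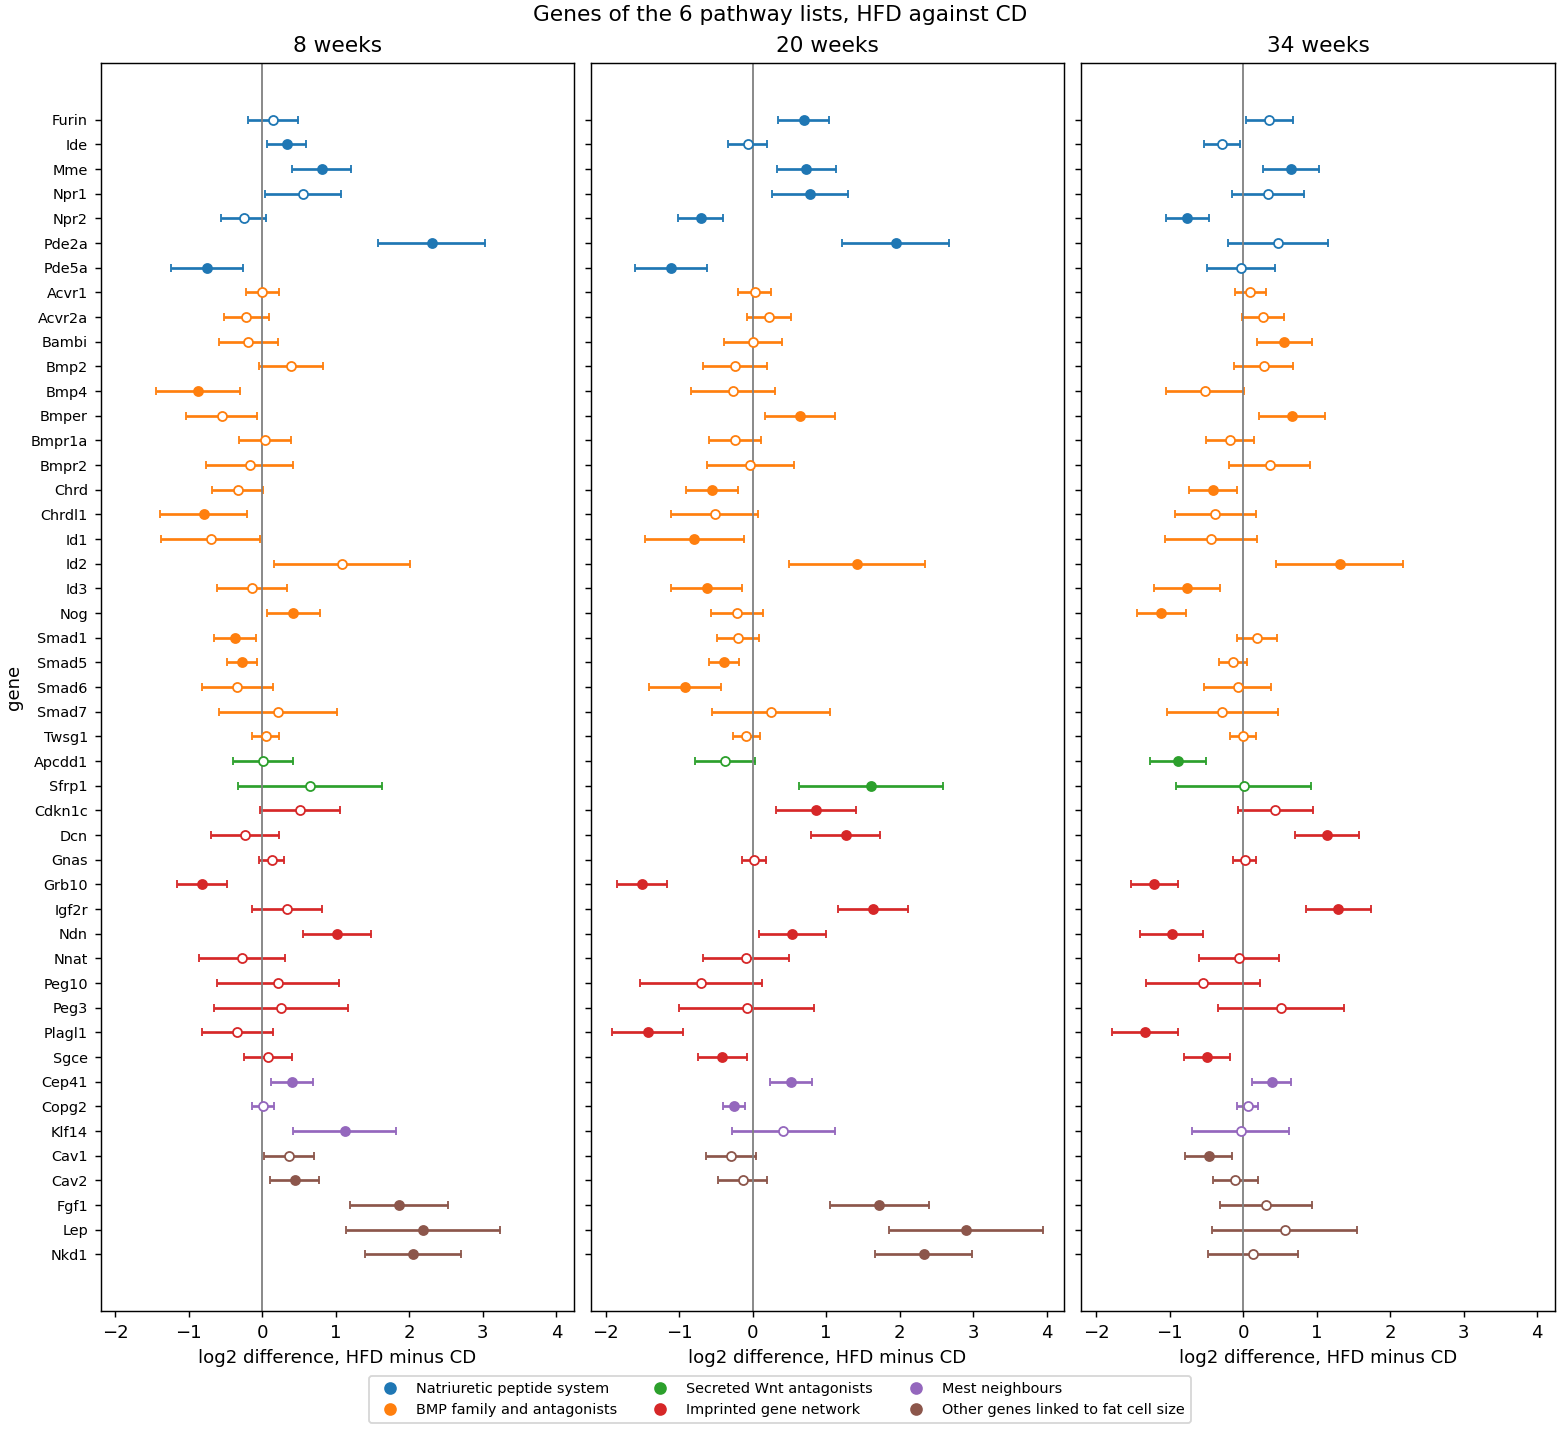
Log2 difference between HFD and CD (x axis) with 95% confidence intervals for every tested gene of the 6 pathway lists (rows, coloured by list) at 8, 20 and 34 weeks, filled where the adjusted p is under 0.05. The points farthest from 0 are those of Lep (2.90) and Nkd1 (2.32) at 20 weeks and Pde2a (2.30) at 8 weeks, and most lists hold genes on both sides of 0.

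The floating adipocyte fraction can carry other cells, and fewer cells of a type and less RNA per cell cannot be told apart in these libraries. Over all genes tested, 29.8%, 38.3% and 27.5% rose with HFD at 8, 20 and 34 weeks and 15.1%, 18.7% and 15.7% fell. Of the 8 adipocyte markers, 1, 6 and 8 fell with HFD at 8, 20 and 34 weeks and none rose, with Adipoq at -0.75 and Plin1 at -0.68 at 20 weeks. With TMM, Cidec also fell at 8 weeks (-0.56, adjusted p = 0.0328). Their summed level was 44732 to 56124 CPM in 8 week CD and 26990 to 41558 CPM in 8 week HFD mice, 38758 to 64593 and 21628 to 31280 CPM at 20 weeks, and 28352 to 61609 and 13985 to 34996 CPM at 34 weeks. Of 9 macrophage markers analysed, 6, 6 and 8 rose at the 3 times and 1 fell at 20 weeks, with Cd68 at 1.78, 3.29 and 1.87 on the log2 scale. Their summed level was 332 to 1449 CPM in 8 week CD and 948 to 3450.4 CPM in 8 week HFD mice, 901 to 3266 and 5055 to 12165 CPM at 20 weeks, and 921 to 11020.4 and 5447 to 16515 CPM at 34 weeks, and no marker was at 0 in any mouse. With the mean of these markers as a covariate, all 4 genes remained past the threshold at 8 and 20 weeks, with log2 differences of 1.41 to 3.11 and 1.83 to 3.09 (adjusted p 4.8e-05 to 0.0412 and 0.00258 to 0.0292). That fit has 1 slope for all 6 groups, and most of the markers themselves rose with HFD. It therefore cannot separate diet from macrophages, and the part of macrophages in the results was not tested. After removing group means, the macrophage mean correlated with the 4 genes at r = 0.112 to 0.282 (rho -0.043 to 0.098, permutation p 0.208 to 0.59 for r, adjusted p = 0.711 over the 8 relations computed with macrophages and depth). Within single groups r lay between -0.909 and -0.878 for the 4 genes in 34 week HFD mice and between 0.684 and 0.873 in 20 week CD mice. None of the 24 relations passed an exact permutation test after Benjamini-Hochberg adjustment (smallest adjusted p = 0.0933 for r and 0.0667 for rho).

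Endothelial markers rose in 6, 5 and 6 of 6 genes, markers of progenitors and fibroblasts in 4, 6 and 3 of 6 tested, mural markers in 3, 2 and 2 of 4, and mesothelial markers in 2, 0 and 0 of 3 tested, and none fell. Of all genes tested, 29.8%, 38.3% and 27.5% rose and 15.1%, 18.7% and 15.7% fell. With TMM and with median-of-ratios factors the rises of the progenitor marker Ly6a and the mesothelial marker Upk3b at 8 weeks were lost. So were those of the progenitor marker Dpp4 and the mural marker Myh11 at 20 weeks and of the mural marker Cspg4 at 34 weeks. Over the 6 groups the summed levels ran from 24.0 to 386 CPM for endothelial, 150 to 926 CPM for progenitor and fibroblast, 33.7 to 495 CPM for mural and 7.31 to 70.6 CPM for mesothelial markers. The part of these cells in the results was not tested. Lymphocyte markers summed to at most 2.57 CPM in any mouse, epididymis markers to at most 9.89 CPM and testis markers to at most 42.9 CPM, and no gene of these lists was tested.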

How the data were processed

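Poly(A) RNA of adipocytes from perigonadal fat was sequenced with 3 technical replicates per mouse. Per the paper's methods and the submitters' processing notes, the authors aligned reads to GRCm38 (mm10) with STAR 2.5.2b and counted them on GENCODE genes with featureCounts (Subread 1.5.1). The deposited table holds CPM made by the authors, with technical replicates merged to 1 column per mouse, and every column sums to 1e+06. No factor for composition was applied in these values. The paper's methods describe CPM with edgeR TMM factors, unless stated otherwise. The main tests here used the deposited values without such factors, and TMM was an alternative. Whole reads were recovered from the CPM steps (100% of values within 0.1 reads), 7966 of 29132 genes were at 0 throughout, and 9275711 to 15480388 reads per mouse set the precision, which covers counting error only.

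Differences were computed with limma 3.58.1 (R 4.3.3, trend) on log2(CPM + 1) for the 10343 genes with a mean of log2(CPM + 1) above 2, all 6 groups sharing 1 spread with 32 residual degrees of freedom, and Benjamini-Hochberg adjustment over all genes at 0.05. edgeR 4.0.16 on the recovered reads was an alternative and called 4521, 6042 and 4478 genes between diets at 8, 20 and 34 weeks, against 4648, 5894 and 4468 for limma. Other alternatives were a pseudocount of 0.5 CPM, no filter, TMM and median-of-ratios factors (DESeq2 1.42.0), the compared groups alone, the mouse number as a block, a macrophage covariate and leaving out each mouse. Relations within groups used 100000 permutations in SciPy 1.17.1 (Python 3.11.15). The limma step was tested on simulated data. No pair among the 103 within groups was alike enough to be 1 library (lowest chi-square per degree of freedom 9.99).

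Named genes were the 4 members, up to 3 called genes per pathway list and time with the largest log2 difference, the 5 genes most like each member over the 38 mice (members, predicted genes and symbols turned into dates passed over), and Adipoq, Plin1 and Cd68 as checks. Values of these genes at other times, the levels of Nppa, Nppb, Nppc, Sfrp2, Sfrp4 and the call of Cav2, were chosen after their values were seen. So were the list genes named because their calls changed with the scaling. Adgre1, Cavin1 and Cavin2 were not analysed here, and 1 gene of the BMP list is not reported here. The members and lists were chosen with earlier results of these data known.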

Additional observations from a re-analysis of the deposited data

Results flagged for a closer look

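In a group of 6 mice, 1 mouse stood apart from the others for 2 of the 24 combinations of gene and group tested, by the gap to the nearest mouse over the whole range, and chance alone gives about 1 in 20. Npr3 in mouse 3 of the 20 week CD group was 65.1 CPM. Bmp3 in mouse 5 of the 20 week HFD group was 41.2 CPM.

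The diet difference changed with time by a test of the interaction for 3 of the 4 genes. From 20 to 34 weeks the log2 diet difference changed by -3.40 for Sfrp5, -2.14 for Npr3 and -1.41 for Bmp3. From 8 to 34 weeks it changed by -3.10 for Sfrp5, -1.53 for Npr3 and -1.43 for Bmp3.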

How the results depend on the processing

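Of 384 values of the 4 genes under settings other than leaving out a mouse, 354 kept their direction and side of the threshold, as did 707 of 760 with a mouse left out. Counted by result, 29 of the 48 results of these genes kept both under every setting and with every mouse left out. The diet differences at 8 and 20 weeks kept both under every alternative run, as did the 6 correlations. Why the others moved was not tested.

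Values are log2 differences. Without a filter, Bmp3 at 34 weeks (0.66) and Npr3 at 20 against 8 weeks in CD (-1.20) no longer passed. With TMM, Npr3 at 34 weeks (-0.038) and Bmp3 at 34 against 20 weeks in HFD (-0.020) changed sign, Bmp3 at 34 weeks (0.57) no longer passed, and Mest (-1.10) and Npr3 (-0.83) at 34 against 8 weeks in HFD passed. With median-of-ratios factors the same held for Npr3 at 34 weeks (-0.040), Bmp3 at 34 against 20 weeks in HFD (-0.053), Mest (-1.08) and Npr3 in HFD (-0.81). In edgeR, Npr3 at 34 weeks (-0.026), Mest at 34 against 8 weeks in CD (0.016) and the change of the Sfrp5 diet difference at 20 against 8 weeks (-0.17) changed sign, Npr3 at 20 against 8 weeks in CD (-0.99) no longer passed, and Mest (-1.05) and Npr3 (-0.75) at 34 against 8 weeks in HFD passed. With the compared groups alone, Bmp3 at 34 weeks (0.66) and Npr3 at 20 against 8 weeks in CD (-1.20) no longer passed, and in HFD Npr3 at 20 against 8 weeks (-0.59) and Mest (-0.99) and Npr3 (-0.72) at 34 against 8 weeks passed. That setting called 2457 genes at 34 weeks, against 4468. With the macrophage covariate, Npr3 at 34 weeks (-0.086), Bmp3 at 34 against 20 weeks in HFD (-0.0076) and the Sfrp5 change at 20 against 8 weeks (-0.026) changed sign, Bmp3 at 34 weeks (0.51), Npr3 at 34 against 8 weeks in CD (0.64) and Mest at 20 against 8 weeks in HFD (-1.64) no longer passed, and 1267 genes at 20 weeks and 472 at 34 weeks were called, against 5894 and 4468.

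The mouse numbers are only names here, since the deviations of same-numbered mice correlated at -0.676 to 0.55 (median -0.068, 30 of 90 pairs over 0.1). With the mouse number as a replicate block, Mest at 34 weeks passed (1.25), Npr3 at 34 against 8 weeks in CD did not (0.66), and no other call of the 4 genes changed.

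With a mouse left out, the results that changed ranged as follows. Diet differences at 34 weeks ran from 0.65 to 1.15 for Mest, -0.066 to 0.22 for Npr3 and 0.48 to 0.77 for Bmp3. In CD, 20 against 8 weeks ran from -1.38 to -0.77 for Npr3 and -0.26 to 0.068 for Bmp3, and 34 against 8 weeks from -0.45 to 0.056 for Mest and 0.72 to 0.95 for Npr3. In HFD, 20 against 8 weeks ran from -1.44 to -1.14 for Mest and -0.20 to 0.025 for Bmp3, 34 against 20 weeks from -0.32 to 0.027 for Sfrp5, -0.25 to 0.037 for Npr3 and -0.13 to 0.12 for Bmp3, and 34 against 8 weeks from -0.84 to -0.55 for Npr3 and -0.20 to 0.047 for Bmp3. The change of the diet difference at 20 against 8 weeks ran from -0.061 to 0.65 for Sfrp5 and -0.15 to 0.19 for Bmp3, and at 34 against 20 weeks from -1.96 to -1.29 for Mest. The counts of all genes called moved too, for the change of the diet difference from 464 to between 195 and 2698 at 20 against 8 weeks and from 1089 to 723 (compared groups alone) and 710 (a mouse left out) at 34 against 20 weeks, and for 20 against 8 weeks in CD from 370 to between 217 and 1385. With the macrophage covariate the count in HFD was 328 at 20 against 8 weeks, against 3772, and 2199 at 34 against 8 weeks, against 5432.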
